A study of Mus musculus with 43 samples.

Results

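The comparison described here is between 2 single-cell RNA libraries of irradiated mouse intestinal organoids, collected after 6 h and after 15 h of TGFB1. Cells with at least 500 UMIs and at most 20% of UMIs from mitochondrial genes were taken, which left 4283 cells at 6 h and 2890 at 15 h, 7173 of the 15587 such cells in all single-cell libraries of the series. The value of a gene is its UMIs (unique molecular identifiers, which count captured RNA molecules) summed over the cells of a library and scaled to the library's total (CPM). Organoids are small epithelial cultures grown from intestinal tissue in a gel. All 4 libraries of this time course came from primary intestinal organoids of wild-type C57BL/6 mice that received 4 Gy on day 4 and were collected on day 8. They had 1 ng/mL TGFB1 for the last 6, 15 or 24 h, or vehicle for 24 h, which is called 0 h here. There is 1 library at each time, so no difference between 6 and 15 h has a replicate check or a test, and intervals cover counting error only. Neither the 6 h nor the 15 h library has a vehicle library of the same duration, and the labels give neither the hour of day of collection nor how many cultures were pooled. Bulk libraries of other organoids from the same strain, 3 with vehicle and 3 with 2 ng/mL TGFB1 for 24 h, given 4 Gy on day 4 and collected on day 7, are set beside the single cells at the end.

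TGFB1 binds a pair of receptor kinases that phosphorylate SMAD2 and SMAD3, which enter the nucleus with SMAD4 and switch on target genes, among them inhibitors of the pathway itself such as Smad7 and Pmepa1. In epithelium the pathway is known for arresting the cell cycle and for changing the contacts of cells with the matrix. After damage the intestinal epithelium is known to pass through a regenerative, fetal-like state marked by genes such as Clu, Anxa1 and members of the S100 and Sprr families, in which the coactivator YAP takes part.

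The 6 h library held 32430950 UMIs with a median of 6709 per cell, and the 15 h library 26302424 with a median of 7805. The median mitochondrial share was 3.24% at 6 h and 4.34% at 15 h. No cell barcode occurred in both libraries. Epithelial genes were abundant at both times, with Epcam at 1547 and 1665 CPM and Cdh1 at 497 and 561 CPM. The summed levels of immune, mesenchymal, endothelial and glial or neuronal markers lay between 0.559 and 4.00 CPM in both libraries, no member of these lists reached 10 CPM, and the defining markers Cd3e, Pdgfra, Cdh5, Kdr, Emcn and Sox10 were at 0 in both.

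Of 8482 genes with at least 10 CPM in the higher of the pair of libraries, 74 (0.872%) were at least 2-fold higher at 15 h and 40 (0.472%) at least 2-fold lower, 1.34% in all. The median gene stood at a log2 ratio of −0.0098, and the middle 90% of genes lay between −0.554 and 0.485. At a 1.5-fold limit the balance turned, with 250 genes (2.95%) higher and 364 (4.29%) lower at 15 h. The largest ratios upward belonged to Anxa1, Anxa8, Tnfrsf11b, Cym and Nupr1, and the largest downward to Fkbp5, Tef, Zg16, Per2 and Agr2. The counting interval of the ratio excluded 1 for all 114 genes past 2-fold. Just inside the limit stood ratios of 2.00447 upward and 2.00805 downward, and just outside it 1.98721 and 1.99996.

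**Figure D1:**
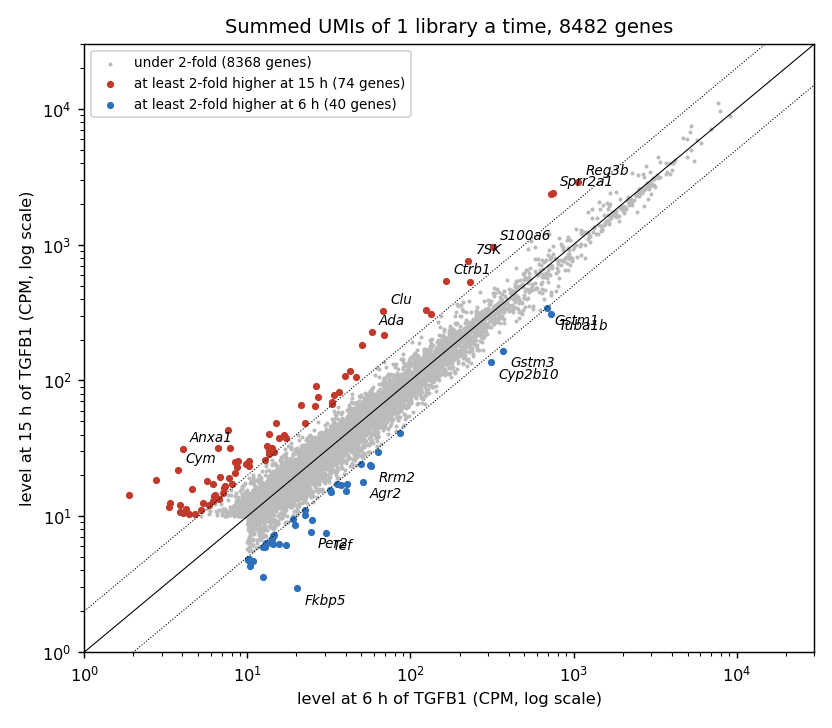
Level of each of 8482 genes in the 6 h library (horizontal axis, CPM, log scale) and in the 15 h library (vertical axis, CPM, log scale), 1 point a gene, with equality as a solid line and 2-fold as dotted lines. The 74 genes at least 2-fold higher at 15 h (red) include genes from a few CPM, such as Anxa1, to far more abundant ones, such as Reg3b, and the 40 at least 2-fold lower (blue) run from Fkbp5 to Tuba1b.

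Measured genes of the regenerative list stood higher at 15 h. Of 25 members 18 reached 10 CPM, and all 18 were above a ratio of 1, 15 of them by at least 1.5-fold (2.95% of all genes compared) and 11 by at least 2-fold (0.872%), with a median log2 ratio of 1.29. Anxa1, Anxa8, Ly6d, Msln and Plaur reached 10 CPM at 15 h alone and so had to be higher there. With the make-up of cell clusters held equal, as described below for the cell cycle, the median was 0.96, with 17 of 18 above 1 and 9 at least 2-fold, and the ratio of Anxa8 was 4.76, of Anxa10 2.18, of Ly6d 1.42, of Msln 1.34 and of Sprr1a 0.976 in place of 1.62. Clu, which encodes the secreted chaperone clusterin, was at 13.3 CPM at 0 h, 67.8 at 6 h, 325 at 15 h and 773 at 24 h, a 4.79-fold difference from 6 to 15 h (interval 4.57 to 5.02). Anxa1, a phospholipid-binding annexin, was at 3.25, 4.01, 31.1 and 98.2 CPM in the same order, 7.77-fold higher at 15 h (6.45 to 9.42). Clu was thus already well above the vehicle level at 6 h, while Anxa1 at 6 h stood close to it. The annexins Anxa3, Anxa5, Anxa8 and Anxa10 were 3.25-, 2.98-, 7.66- and 3.47-fold higher at 15 h than at 6 h, and Anxa2 1.52-fold. The calcium-binding proteins S100a6 and S100a11 were 2.98- and 2.64-fold higher, with S100a6 at 180, 322, 959 and 1773 CPM over the 4 times. The least moved members were Ly6e at 1.01-fold, S100a10 at 1.15-fold and Cd44, a hyaluronan receptor, at 1.29-fold. Ly6a, often used as a marker of this state, had only 15.7 UMIs at 6 h and 69 at 15 h, or 0.483 and 2.62 CPM. Sprr2a1, Sprr2a2 and Sprr2a3, which encode small proline-rich proteins of the cell envelope, were 3.21-, 3.27- and 3.13-fold higher, but these copies are nearly identical and the split of reads between them is uncertain.

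Promoter windows for the genes came from RefSeq (GRCm38.p6, 250 bases before to 50 after the start of a gene, 32851 windows), matched by symbol. The AP-1 site, searched as TGANTCA on both strands, was present in 7 of 19 windows of the regenerative list (36.8%), in 7.81% of all windows and in 5.01% of the windows of the genes compared. AP-1 genes themselves had 8 of 8 measured members above 1, beside 4095 of the 8482 genes compared. Of these members 2 were at least 1.5-fold higher and none 2-fold, and the median log2 ratio was 0.44. The 2 were Atf3, at 102 CPM at 6 h and 193 at 15 h, and Fosb, at 44.0 and 74.3 CPM. Whether AP-1 acts on the regenerative genes was not tested. Below are the 250 bases before the start of Anxa10 (chr8:62123194-62123443, minus strand) and of S100a11 (chr3:93520246-93520495, plus strand), 5′ to 3′, the members with the largest ratios that have a single window with a match, with the AP-1 letters in capitals. In Anxa10 the matches begin 180 and 16 bases before the start, and in S100a11 136 and 38 bases before it.
Anxa10: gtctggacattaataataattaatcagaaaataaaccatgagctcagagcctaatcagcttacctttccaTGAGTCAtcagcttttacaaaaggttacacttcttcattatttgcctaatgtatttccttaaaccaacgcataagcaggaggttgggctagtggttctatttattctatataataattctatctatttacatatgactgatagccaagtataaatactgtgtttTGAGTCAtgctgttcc
S100a11: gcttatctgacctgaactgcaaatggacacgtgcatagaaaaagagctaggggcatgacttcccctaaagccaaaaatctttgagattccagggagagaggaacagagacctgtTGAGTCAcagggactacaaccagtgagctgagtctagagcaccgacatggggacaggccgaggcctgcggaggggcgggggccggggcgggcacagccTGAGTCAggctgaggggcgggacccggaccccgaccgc
A match of letters is a description of the sequence and not a measured site. Among all genes at least 2-fold higher, 52 of 74 had a window, and 8 of their 64 windows (12.5%) held the AP-1 letters. The TEAD letters ACATTCC, bound by the partners of YAP, were in 9.38% of these 64 windows, 2.6% of the windows of the genes compared and 3.85% of all. The SMAD letters CAGACA were in 20.3% of the 64 windows, 15.3% of those of the genes compared, 21% of all, and 11 of 46 windows (23.9%) of the genes at least 2-fold lower. None of the motifs searched contains the letters of another.

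Receptors, SMADs and feedback genes of the pathway lay within 1.5-fold between 6 and 15 h. All 8 measured feedback genes were above 1 but none reached 1.5-fold, with a median log2 ratio of 0.19, and of 7 measured receptors and SMADs 3 were above and 4 below 1, with a median of −0.04. The ligand genes Tgfb1, Tgfb2 and Tgfb3 did not reach 10 CPM. Pmepa1, which encodes a membrane protein that holds back SMAD activation, was at 15.6 CPM at 0 h, 161 at 6 h, 231 at 15 h and 334 at 24 h. Smad7, the inhibitory SMAD, was at 14.7, 30.2, 37.6 and 40.5 CPM, so that most of its distance from vehicle was present at 6 h. The receptor gene Tgfbr2 was at 37.7 CPM at 6 h and 42.7 at 15 h, and Smad4 at 81.7 and 75.7.

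Targets that act on matrix and adhesion were the members of the pathway that stood apart. Of 8 measured TGFB targets 3 were at least 2-fold higher, beside 0.872% of all genes compared. Of the 8, 7 were above 1, and the median log2 ratio was 0.58. Ccn2 reached 10 CPM at 15 h alone and Hmga2, the member below 1, at 6 h alone, so the direction of both was fixed by that limit. Thbs1, the matrix protein thrombospondin 1, was at 28.6, 39.5, 107 and 245 CPM at 0, 6, 15 and 24 h, 2.71-fold higher at 15 than at 6 h (2.54 to 2.90). Itgb6, the subunit of an integrin that releases active TGFB, was 2.03-fold higher, and Ccn2, a secreted matrix protein, 3.72-fold higher from 3.36 to 12.5 CPM. Hmga2, an architectural chromatin protein, stood lower at 15 h, at 7.77 against 11.8 CPM. Lama3, which reached 10 CPM at 15 h alone, and Lamb3, chains of a laminin of epithelial basement membranes, were higher at 15 h than at 6 h, with Lama3 at 0.0731, 4.59, 15.8 and 26.1 CPM over the 4 times and Lamb3 at 24.8, 33.3, 66.7 and 84.6. At 15 h Lama3 was 3.43-fold and Lamb3 2.00-fold above 6 h, while the integrin subunit of hemidesmosomes, Itgb4, was 1.44-fold above and Itga6 stood at 147 CPM at 6 h and 126 at 15 h.

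Of the YAP targets 10 of 10 measured members were above 1, 3 of them at least 2-fold, and the median log2 ratio was 0.68. Of all 8482 genes compared, 4095 were above 1 and 0.872% at least 2-fold higher. Ccn2 and Ajuba reached 10 CPM at 15 h alone and so had to be above 1. F3, the receptor that starts coagulation, was at 26.0, 27.3, 76.1 and 121 CPM at 0, 6, 15 and 24 h. Amotl2, an angiomotin that binds YAP, was 2.13-fold higher at 15 than at 6 h, and Ccn1, a secreted matrix protein, 1.81-fold. Of the EGF family 8 of 8 measured genes were above 1, with the ligand Areg at 154 CPM at 6 h and 296 at 15 h and the receptor Egfr at 16.9 and 27.2 CPM. Cldn4, a tight junction claudin, was 2.33-fold higher, and the keratins Krt18 and Krt23 1.65- and 2.49-fold. Vim, a mesenchymal filament gene, had 9 UMIs at 6 h and 16 at 15 h.

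**Figure D2:**
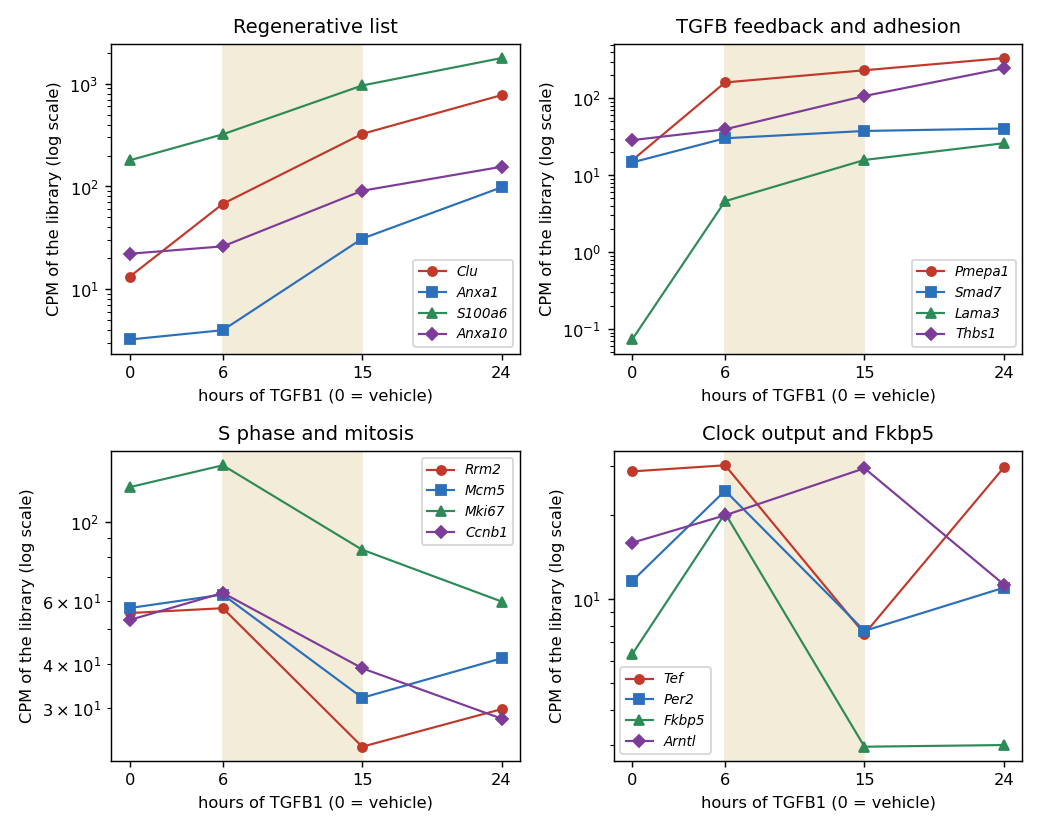
Levels of 16 genes in the libraries at 0, 6, 15 and 24 h of TGFB1 (horizontal axis, hours; vertical axis, CPM, log scale), 1 library a point, with the interval from 6 to 15 h shaded. Pmepa1 and Smad7 stood above the vehicle level at 6 h, Anxa1 and Anxa10 left the vehicle level after 6 h, Rrm2 and Mcm5 stood lowest at 15 h, and Tef was low at 15 h alone, at 7.49 CPM against 28.7 to 30.2 at the other times.

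Genes of DNA synthesis were lower at 15 h than at 6 h. All 25 S-phase genes were below a ratio of 1, 22 of them by at least 1.5-fold, beside 4.29% of all genes compared, and 4 by at least 2-fold, with a median log2 ratio of −0.79. Ccne1, Ccne2, Cdc45 and Clspn reached 10 CPM at 6 h alone and so had to be lower at 15 h. Rrm2, the regulated subunit of ribonucleotide reductase, was at 55.5, 57.3, 23.4 and 29.8 CPM at 0, 6, 15 and 24 h, 2.45-fold lower at 15 than at 6 h (2.23 to 2.69). Ccne1 and Ccne2, the cyclins that start S phase, were 2.31- and 2.52-fold lower, and Uhrf1, which maintains DNA methylation, 2.06-fold lower. Mcm5, a subunit of the replicative helicase, was at 57.3, 62.5, 32.1 and 41.4 CPM. Outside the list Tk1 and Pclaf, which serve nucleotide salvage and the replication clamp, were 2.22- and 2.15-fold lower. All 24 mitosis genes were below 1 as well, 13 by at least 1.5-fold but Aurkb, a kinase of chromosome segregation, alone by 2-fold, with a median of −0.61. Mki67, the proliferation marker, was at 125, 144, 83.6 and 59.8 CPM, and Ccnb1, the mitotic cyclin, at 53.1, 63.2, 38.8 and 28.0.

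Windows of the S-phase and mitosis lists, which reach from before to after the start, held the letters below in different shares. TTCCCGC, an E2F site, was in 9 of 24 windows of the S-phase list (37.5%), 0 of 20 of the mitosis list, 8.45% of the windows of the genes compared and 4.6% of all windows. TTTGAA, the cell-cycle homology region (CHR) bound by the DREAM and MuvB complexes, was in 15 of 20 mitosis windows (75%), 3 of 24 S-phase windows (12.5%), 12.1% of the windows of the genes compared and 17.9% of all. Rrm1 (chr7:102441445-102441694, plus strand) and Pola1 (chrX:93632156-93632405, minus strand) are shown with the E2F letters in capitals, and Cdk1 (chr10:69352913-69353162, minus strand) and Mki67 (chr7:135716380-135716629, minus strand) with the CHR in capitals, 5′ to 3′. They are the members of each list lowest at 15 h relative to 6 h that have a single window with a match before the start.
Rrm1: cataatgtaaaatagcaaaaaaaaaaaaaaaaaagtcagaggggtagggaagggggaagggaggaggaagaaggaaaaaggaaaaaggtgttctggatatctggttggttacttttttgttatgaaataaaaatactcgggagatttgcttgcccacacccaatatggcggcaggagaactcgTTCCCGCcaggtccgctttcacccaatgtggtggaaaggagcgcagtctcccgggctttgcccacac
Pola1: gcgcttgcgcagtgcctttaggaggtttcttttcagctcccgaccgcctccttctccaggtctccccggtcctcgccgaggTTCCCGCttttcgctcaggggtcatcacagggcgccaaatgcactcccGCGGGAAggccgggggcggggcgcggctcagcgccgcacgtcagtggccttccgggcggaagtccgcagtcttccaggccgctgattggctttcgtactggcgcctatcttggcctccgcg
Cdk1: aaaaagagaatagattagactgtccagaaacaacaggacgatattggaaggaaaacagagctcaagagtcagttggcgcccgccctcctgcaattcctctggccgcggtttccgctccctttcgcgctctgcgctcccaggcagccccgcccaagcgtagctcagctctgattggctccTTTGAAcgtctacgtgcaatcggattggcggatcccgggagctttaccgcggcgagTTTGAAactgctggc
Mki67: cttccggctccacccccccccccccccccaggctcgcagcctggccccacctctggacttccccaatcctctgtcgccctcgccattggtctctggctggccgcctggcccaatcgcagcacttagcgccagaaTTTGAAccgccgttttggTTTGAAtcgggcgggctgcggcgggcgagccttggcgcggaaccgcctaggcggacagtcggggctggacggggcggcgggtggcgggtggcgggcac
The E2F letters begin 67 bases before the start of Rrm1 and 169 and 121 bases before that of Pola1. The CHR letters begin 71 and 15 bases before the start of Cdk1 and 116 and 98 before that of Mki67. Rrm1, the other subunit of ribonucleotide reductase, was at 90.5 CPM at 6 h and 46.5 at 15 h, Pola1, a DNA polymerase, at 25.3 and 14.1, and Cdk1, the mitotic kinase, at 94.4 and 53.5. Of the windows of genes at least 2-fold lower, 11 of 46 (23.9%) held the E2F letters and 7 (15.2%) the CHR.

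The ratios were also computed with the make-up of cell clusters held equal. The cells of both libraries were clustered without the genes at least 1.5-fold apart, into 8 clusters. The levels inside each cluster were then averaged with the same weights at both times, an alternative chosen after the data were seen. The mitosis list then had a median log2 ratio of 0.05, with 16 of 24 genes above 1, in place of −0.61 with 24 below. The S-phase list had a median of −0.53, with 24 of 25 genes below 1 and 9 by at least 1.5-fold. These medians cannot be set against each other. The clustering left out most of the 25 S-phase genes but a smaller part of the 24 mitosis genes, and clusters 3 and 5 were led by mitotic genes. Equal weights of those clusters therefore level the mitosis genes by construction. The number of genes at least 2-fold lower over the whole transcriptome was 20 with equal make-up in place of 40, and the number higher 59 in place of 74. In summed values fewer cells of a type and less RNA per cell cannot be told apart.

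**Figure D3:**
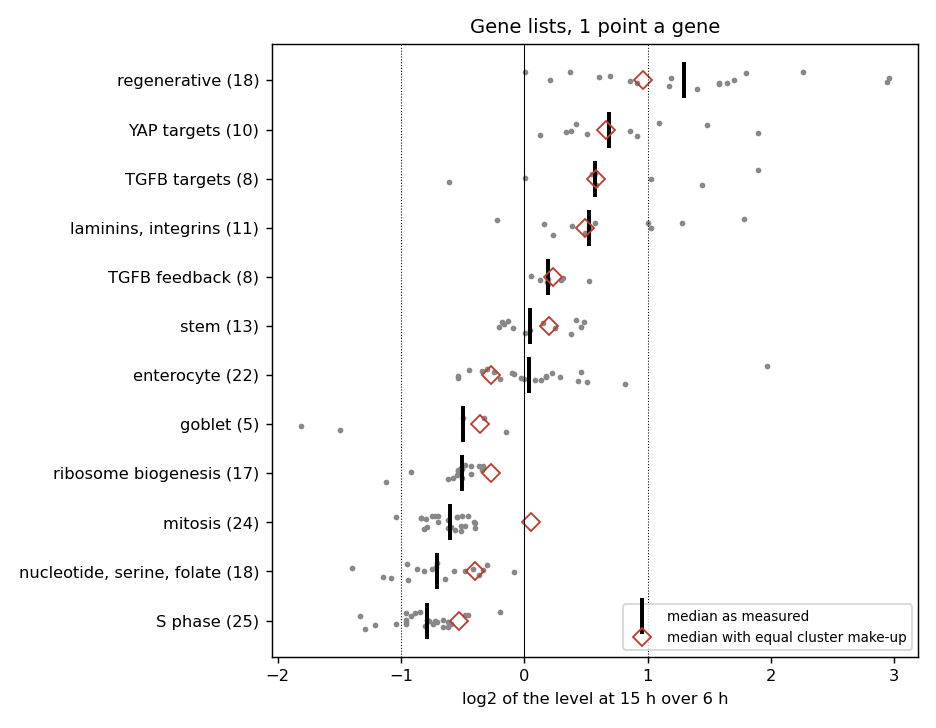
Log2 ratio of the level at 15 h over that at 6 h (horizontal axis) for the measured genes of 12 lists, 1 grey point a gene, with the number of genes in brackets. The black bar is the median as measured and the red diamond the median with equal cluster make-up, which for the regenerative list lies at 0.96 in place of 1.29. For the mitosis list it lies at 0.05, a value set in part by the mitotic genes that formed the clusters.

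Genes of nucleotide supply and of ribosome biogenesis also stood lower at 15 h. These 2 lists were put together after the values were seen, so their counts describe the genes chosen and test nothing. Tyms is a member of both the nucleotide list and the S-phase list. All 18 genes of nucleotide, serine and folate metabolism were below 1, with a median log2 ratio of −0.71, and all 17 genes of ribosome biogenesis, with a median of −0.50. Of all 8482 genes compared, 4387 were below 1. Cad, which starts pyrimidine synthesis, was at 24.9 CPM at 6 h and 9.47 at 15 h, and Mthfd1, a folate enzyme, at 86.6 and 40.8. Cad reached 10 CPM at 6 h alone and so had to be lower at 15 h. Phgdh, Psat1 and Shmt2, enzymes of serine and glycine synthesis, were 1.93-, 1.92- and 1.83-fold lower. Srm, the spermidine synthase, was 2.17-fold lower and Lyar, a nucleolar protein, 1.89-fold. Myc, a known activator of many such genes, was at 46.7 CPM at 6 h and 50.5 at 15 h. With equal cluster make-up the medians of the 2 lists were −0.40 and −0.27. In cluster 7, described below, the summed lists were higher at 15 h. There the nucleotide list was at 284 CPM at 6 h and 383 at 15 h, and the ribosome list at 641 and 933. In every other cluster both sums were lower at 15 h. The tubulin genes differed in opposite directions, Tuba1b from 730 CPM at 6 h to 310 at 15 h and Tuba1a from 8.44 to 24.98. Their coding sequences are close to each other, so some reads could be split between them.

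The largest ratio downward belonged to Fkbp5, a co-chaperone of the glucocorticoid receptor and a known target of it, at 6.33 CPM at 0 h, 20.3 at 6 h, 2.95 at 15 h and 2.99 at 24 h. It was 6.87-fold lower at 15 than at 6 h (5.40 to 8.77). A list of clock and glucocorticoid genes, put together after the values were seen, had 13 measured members, 6 above and 7 below 1. Its median log2 ratio was −0.17. Fkbp5, Tef and Per2 were at least 2-fold lower, but reached 10 CPM at 6 h alone and so had to be lower at 15 h. Tef, a transcription factor of the clock output, was at 28.7, 30.2, 7.49 and 29.6 CPM over the 4 times, 4.03-fold lower at 15 than at 6 h (3.45 to 4.72). Per2, a repressor of the clock, was at 11.6, 24.5, 7.68 and 11.0 CPM, 3.18-fold lower at 15 h. Per1, Cry1 and Nr1d2, other genes of the clock, were 1.69-, 1.54- and 1.65-fold lower. Genes chosen for this set after their values were seen include Dbp, a relative of Tef, at 15.9, 9.56, 2.02 and 12.5 CPM, and the clock activator Arntl at 15.9, 19.95, 29.4 and 11.3 CPM. Npas2, a partner of the clock loop, was at 4.42, 4.04, 9.01 and 4.51 CPM, so Arntl and Npas2 were highest in the library in which Tef and Dbp were lowest. Clock itself was at 54.7 and 59.1 CPM, and Nr1d1 at 16.8 and 17.6. Duration of TGFB1 and the hour at which it was added or the cells were taken cannot be told apart in this design.

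Markers of the stem cells of the crypt base stood within 1.5-fold between 6 and 15 h. None of 13 measured stem genes reached 1.5-fold, 8 were above and 5 below 1, and the median log2 ratio was 0.05. At equal cluster make-up the median was 0.20, with 10 above and 3 below 1. Lgr5, the receptor that marks these cells, was at 35.9, 23.4, 30.5 and 37.0 CPM at 0, 6, 15 and 24 h, and Olfm4 at 1965, 2169, 2241 and 1626. The 22 enterocyte genes split evenly, 11 above and 11 below 1, with a median of 0.04 as measured and of −0.27, with 16 below 1, at equal cluster make-up. Fabp1, a fatty acid carrier, was at 9067 CPM at 6 h and 8917 at 15 h, and Apob, the carrier protein of lipoproteins, at 526 and 925. Single transporters differed in both directions, with the glucose carriers Slc5a1 at 891 and 651 CPM and Slc2a2 at 114 and 78.6, and the phosphate carrier Slc34a2 at 21.2 and 65.5. Ada, adenosine deaminase, was at 25.7, 58.0, 226 and 122 CPM over the 4 times, but its 3.90-fold ratio was 1.32 without the single cluster that it led.

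Among detoxifying enzymes a few genes stood lower at 15 h. Cyp2b10, a cytochrome P450, was at 128, 312, 136 and 68.8 CPM at 0, 6, 15 and 24 h, 2.29-fold lower at 15 than at 6 h (2.21 to 2.38), and so near the vehicle level at 15 h. Gstm1 and Gstm3, glutathione transferases, were at 692 and 368 CPM at 6 h and at 340 and 166 at 15 h, and as members of one family may share reads. Of 11 measured genes of the NRF2 and glutathione list 10 were below 1, 2 of them by at least 1.5-fold, with a median log2 ratio of −0.23. Of 10 measured carboxylesterase and urea cycle genes 7 were below and 3 above 1, with a median of −0.29 and Ces1d alone at least 1.5-fold apart. Of all 8482 genes compared, 4387 were below 1 and 4.29% at least 1.5-fold lower, so 7 of 10 is not far from the share over all genes. At equal cluster make-up 10 of the 11 and 8 of the 10 were below 1, 3 and 4 of them by at least 1.5-fold. Ces1d, a carboxylesterase, was at 40.5, 40.5, 15.4 and 4.57 CPM over the 4 times. Metallothioneins, which were higher at 0 h, were level between 6 and 15 h, with Mt1 at 13286 CPM at 0 h, 5684 at 6 h and 5906 at 15 h.

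Secretory genes are given by lineage, and few of them reached 10 CPM. Of all 8482 genes compared, 4387 were below 1 and 4095 above. The 5 measured goblet genes were all below 1, with a median log2 ratio of −0.50, but Zg16 reached 10 CPM at 6 h alone and so had to be lower at 15 h. The summed goblet list was at 458, 452, 319 and 440 CPM at 0, 6, 15 and 24 h, so it was lowest at 15 h and higher again at 24 h. Agr2, a chaperone of mucin folding, was at 53.5, 50.9, 18.02 and 27.6 CPM, and Zg16, a lectin of the mucus, at 7.06, 12.5, 3.57 and 5.45. Muc2, the main mucin, had 109 UMIs at 6 h and 51 at 15 h and did not reach 10 CPM. The 3 enteroendocrine genes that reached 10 CPM were higher at 15 h, the hormones Cck at 3.30 and 11.8 CPM and Gip at 6.78 and 19.5, and the granule protein Chgb at 9.68 and 17.7. All 3 reached the limit at 15 h alone and so had to be higher there. Of 7 measured Paneth genes 6 were above and 1 below 1, with a median log2 ratio of 0.28. Lyz1, lysozyme, was 1.62-fold higher and Mmp7, the protease that activates defensins and reached 10 CPM at 15 h alone, 2.81-fold. Reg3b, an antimicrobial lectin, was at 549, 1068, 2897 and 2446 CPM over the 4 times, while Reg1 stood at 5484 CPM at 6 h and 4162 at 15 h.

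Some genes known from stomach or pancreas were among the largest ratios. Cym, which encodes chymosin, was at 0.110 CPM at 0 h, 3.76 at 6 h, 21.7 at 15 h and 102 at 24 h, 5.78-fold higher at 15 than at 6 h (4.75 to 7.09). Ctrb1, chymotrypsinogen B, was at 79.7, 165, 539 and 931 CPM, and Gkn3, a gastrokine, at 9.95, 36.7, 81.6 and 49.7. Of the 15 genes of that list 4 reached 10 CPM and 11 did not. Of those 11, 5 were at 0 in both libraries, among them the acinar genes Cpa1, Prss2 and Pnlip. Nupr1, a stress-induced chromatin protein, was at 39.8, 7.62, 43.0 and 140 CPM, so the 15 h level was near vehicle and the 6 h level below both. Il1rn, the antagonist of the interleukin 1 receptor, was 4.82-fold and Lgals3, a galectin, 3.60-fold higher at 15 than at 6 h.

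Small structured RNAs were higher at 15 h and higher again at 24 h. The list of these was put together after their values were seen. 7SK, the RNA that holds the elongation factor P-TEFb inactive, was at 357, 226, 760 and 3869 CPM over the 4 times, 3.36-fold higher at 15 than at 6 h (3.27 to 3.45). Rpph1, the RNA of ribonuclease P, was at 21.3, 17.2, 38.0 and 129 CPM, and the 5S copy n-R5s100 at 16.8, 7.86, 31.7 and 140. These RNAs carry no long poly(A) tail. The median mitochondrial share per cell was 2.95, 3.24, 4.34 and 4.85% over the same libraries, and its part in these ratios was not tested.

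The share of cells per cluster differed between the libraries, though the mitotic genes that lead clusters 3 and 5 were themselves lower at 15 h. Proliferating-like cluster 5, whose 10 leading genes include Birc5, Cdca3 and Ube2c after a gene without a symbol, held 17.1% of the cells at 6 h (15.95 to 18.2, exact binomial interval) and 6.23% at 15 h (5.37 to 7.17). Proliferating-like cluster 3, which also carried stem markers, held 17.0 and 11.3%. Stem-like cluster 4, led by Gkn3, Fstl1, Olfm4 and Lgr5, held 11.1% at 6 h and 17.5% at 15 h, and enterocyte-like cluster 1 held 18.6 and 25.02%. Enterocyte-like cluster 2, led by Ctrb1 and Reg3g, held 19.8 and 17.0%, and cluster 6, led by Dmbt1 and left unnamed, 10.8 and 14.8%. Cluster 7, led by Ada, Tm4sf4 and Anxa10 and the one with the regenerative markers, held 3.69 and 6.30%, and goblet-like cluster 8, which held other secretory markers too, 1.91 and 1.87%. Cells of the same library are not replicates, so these intervals cover counting error only. Depth moved with the libraries, with a median of 6336 UMIs per cell at 6 h and 9000 at 15 h in cluster 2 and of 8920 and 10986 in cluster 3, and its part in the shares was not tested.

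Clu was higher at 15 h inside every one of the 8 clusters, by 3.29- to 14.4-fold. In stem-like cluster 4 it was at 187 CPM at 6 h and 615 at 15 h, in cluster 7 at 211 and 1315, and in enterocyte-like cluster 1 at 8.04 and 33.9. The low levels in clusters 1 and 2 are taken below as background and are not read as expression in those cells. Of the 819 Anxa1 UMIs of the 15 h library, 655 came from cluster 7. There Anxa1 was at 41.4 CPM at 6 h and 332 at 15 h, against 0.766 and 1.85 in cluster 1. Without cluster 7 the ratio of Anxa1 over all cells was 2.80 in place of 7.77, that of Anxa8 3.84 in place of 7.66, that of Lgals3 2.14 in place of 3.60 and that of Clu 3.96 in place of 4.79. Thbs1 in cluster 7 was at 17.3 and 194 CPM, and Nupr1 at 10.5 and 211. Fabp1 in the same cluster was lower, at 6635 CPM at 6 h and 2852 at 15 h.

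The proliferating-like clusters were formed with mitotic genes, so the levels of these genes inside them follow in part from how the clusters were made. Mki67 was at 321 and 337 CPM in cluster 3 and at 279 and 265 in cluster 5, and the summed mitosis list at 3647 and 4087 and at 2939 and 3139. Rrm2 was at 116 CPM at 6 h and 89.1 at 15 h in cluster 3 and at 101 and 51.6 in cluster 5. In stem-like cluster 4 both were lower at 15 h, Mki67 at 92.8 and 34.0 CPM, Rrm2 at 66.9 and 24.7 and Tuba1b at 710 and 230. Lgr5 in that cluster was at 100.0 CPM at 6 h and 100.3 at 15 h. Cyp2b10 was at 919 CPM at 6 h and 398 at 15 h in cluster 1 and at 718 and 230 in cluster 2, so its lower level was present within the enterocyte-like clusters. Fkbp5 in these clusters had 151 and 144 UMIs at 6 h and 5 and 5 at 15 h. In goblet-like cluster 8, with 82 cells at 6 h and 54 at 15 h, Agr2 was at 1690 and 324 CPM and Zg16 had 230 and 2 UMIs. In the same cluster the summed goblet list was at 14920 and 8939 CPM, the enteroendocrine list at 225 and 787 and the Paneth list at 2302 and 4628, and the part of the mix of cell types in these levels was not tested.

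**Figure D4:**
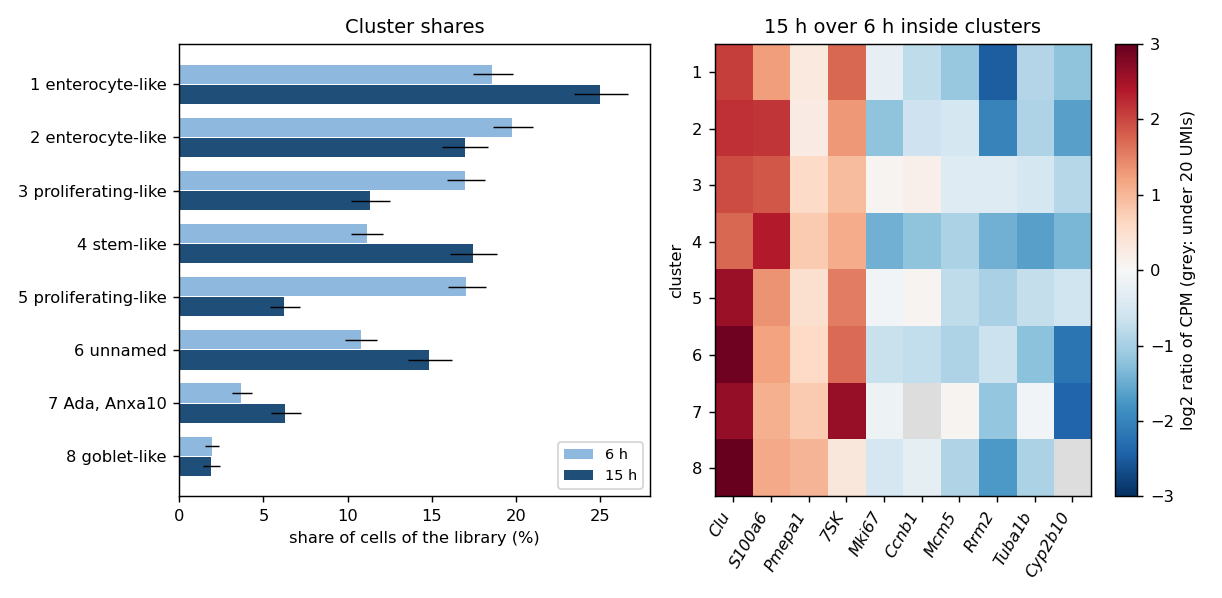
Left, the share of cells of each library in 8 clusters (horizontal axis, %), with exact 95% binomial intervals. Right, the log2 ratio of CPM at 15 h over 6 h inside each cluster for 10 genes, with a colour scale that ends at −3 and 3 and grey where fewer than 20 UMIs were counted over both times or a library had none. Clu is red in all 8 clusters, and Mki67 and Ccnb1 are near white in clusters 3 and 5 but blue in cluster 4.

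Shares of cells that held a gene were compared after each cell was thinned to 2000 UMIs, with entries rounded to whole UMIs first. This left out the few cells of the 6 h library that then held fewer. Clu was then found in 8.63% of the cells at 6 h (7.80 to 9.51) and in 26.2% at 15 h (24.6 to 27.8), against 18.8 and 46.1% without thinning. In the positive cells the mean number of Clu UMIs was 1.504 at 6 h and 2.33 at 15 h. Enterocyte-like cluster 2, where the gene is lowest, gave shares of 1.06 and 3.67%, taken here as the background, and proliferating-like cluster 3 gave 19.4 and 58.4%. Anxa1 was found in 0.561 and 2.35% of all cells, S100a6 in 23.7 and 41.9% and Cym in 0.795 and 3.36%. Mki67 was found in 19.9% of the cells at 6 h and 11.2% at 15 h, and Tuba1b in 48.9 and 28.4%. Both the share of positive cells and the UMIs per positive cell were thus higher for Clu, while for Mki67 the mean in positive cells was 1.39 at 6 h and 1.38 at 15 h.

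Bulk libraries give a replicated measure of TGFB1 in irradiated organoids, at another dose, day and duration. In the bulk libraries 4031 of 11258 genes (35.8%) were called higher with TGFB1 and 4464 (39.7%) lower, by limma on log2(FPKM + 1), two-sided, with Benjamini-Hochberg adjusted p under 0.05. Of the 74 genes higher at 15 h than at 6 h, 62 could be tested in bulk. Of these 60 rose and 0 fell, with a median log2 difference of 2.40. Sprr2a2 and Adm, a vasodilator peptide, were not called. Of the 40 genes lower at 15 h 37 could be tested, of which 36 fell and Arhgdig rose, with a median of −1.57. The median over all genes tested was −0.028. That contrast sets 24 h against vehicle and not 15 h against 6 h, so a gene that passed its whole change before 6 h would also be called.

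Clu was at 186, 179 and 208 FPKM in the vehicle libraries and at 3839, 3912 and 4154 FPKM with TGFB1, a log2 difference of 4.37 (SE 0.0565, limma adjusted p = 1.07e-11). Thbs1 was at 2.79, 3.03 and 2.73 FPKM and at 65.4, 64.3 and 74.4 FPKM, so that, as for Clu, the lowest treated library lay far above the highest vehicle library. Cym was at 0.0667 to 0.475 FPKM with vehicle and 162 to 256 FPKM with TGFB1. Rrm2 was at 40.4, 38.9 and 41.3 FPKM with vehicle and at 8.79, 8.96 and 6.30 FPKM with TGFB1, a difference of −2.21 (SE 0.109, limma adjusted p = 1.73e-07). Fkbp5 fell by 1.24 on the log2 scale from 3.95 to 4.19 FPKM with vehicle, and its groups did not overlap. For the clock genes the differences were small, −0.44 for Tef and −0.38 for Per2 (limma adjusted p = 4.72e-06 and 0.000757), and Arntl, higher at 15 h than at 6 h in the single cells, was lower in bulk, with a difference of −0.28. At 24 h, however, Arntl was lower than at 0 h in the single cells too. Rpph1 differed by 0.26 in bulk, with 43.0 to 46.5 FPKM in the vehicle and 47.9 to 58.2 FPKM in the treated libraries. In the single cells it was at 21.3 CPM at 0 h and 129 at 24 h, and 2.21-fold higher at 15 than at 6 h. Lgr5 and Olfm4 fell by 1.21 and 1.45 on the log2 scale in bulk. In the single cells Lgr5 was at 35.9 CPM at 0 h and 37.0 at 24 h, and Olfm4 at 1965 and 1626. Their ratios of 15 h over 6 h were 1.30 and 1.03. Sprr2a1 was listed at 0.0192 to 0.228 FPKM in all 6 libraries, against 744 CPM at 6 h and 2388 at 15 h in the single cells, and how each table counted reads shared by these copies is not known.

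**Figure D5:**
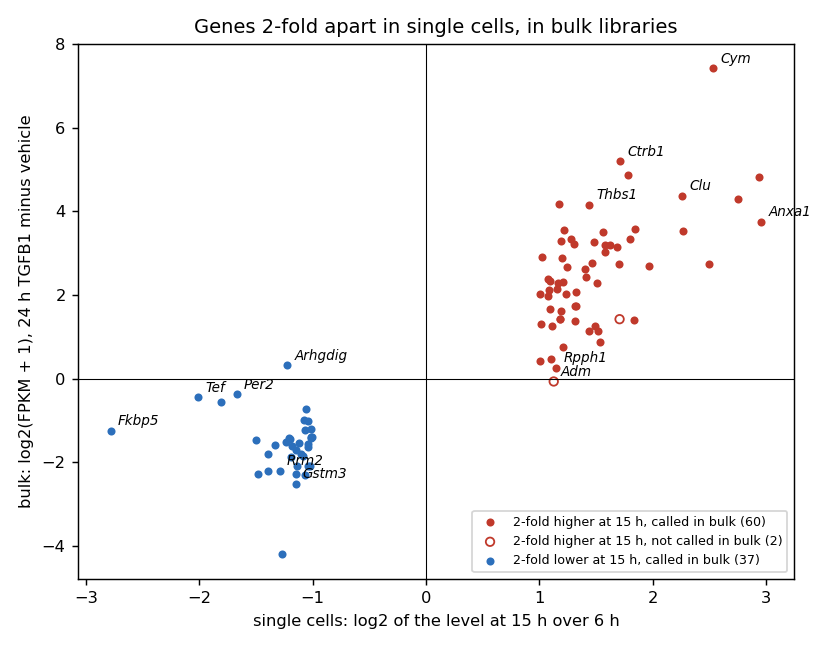
Log2 ratio of the level at 15 h over 6 h in the single cells (horizontal axis) and difference in log2(FPKM + 1) between 3 bulk libraries with 24 h of TGFB1 and 3 with vehicle (vertical axis), 1 point a gene, for the genes at least 2-fold apart in the single cells that could be tested in bulk. Filled points were called by limma at an adjusted p under 0.05. Of 62 genes higher at 15 h, 60 lie above 0 and were called, and of 37 lower ones Arhgdig alone lies above 0.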

How the data were processed

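Per the labels, single-cell libraries were made with the PIPseq T2 kit (v2.1) and the bulk libraries from the same kind of organoids. The deposited matrices hold expected counts of UMIs per gene and cell, of which entries with a fraction make 8.06% of the UMIs at 6 h and 8.82% at 15 h. The submitters' processing notes name STARsolo and STAR 2.7.10a, Cuffnorm 2.2.1 and TopHat2 2.1.0 among the tools, and mm9, GRCm39 and mm39 as builds, without a role, so which of them made which file is not stated. The bulk values are FPKM, deposited by the authors in 1 table of 23951 genes; no read depth comes with them.

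From these, UMIs were summed per gene symbol over cells with at least 500 UMIs and at most 20% mitochondrial UMIs, without rounding, and divided by the total. Symbols ending in -ps or made of Gm plus digits (218 past the limit of 10 CPM) were left aside. At that limit a gene had 324 UMIs at 6 h and 263 at 15 h. Intervals are exact 95% Poisson or binomial intervals. The design assumed whole counts; since the files hold fractions, intervals used rounded sums. Clustering used scanpy 1.11.5 and leidenalg 0.10.2 (2000 variable genes, 30 components, 15 neighbours, resolution 0.6), without the genes at least 1.5-fold apart. For that limit a small constant was added to both levels. Scrublet called 68 cells (1.59%) at 6 h and 5 (0.173%) at 15 h, and these cells were kept. Clusters were named by marker lists. Bulk FPKM were tested with limma 3.58.1 (R 4.3.3, trend, robust) on log2(FPKM + 1), for genes whose average reached 1 FPKM. Nothing in the labels says that the libraries came from separate cultures, so p-values measure the spread between these libraries. Same-numbered bulk libraries deviated with correlations of 0.075, 0.213 and 0.024, so the numbers were not taken as pairs. The ratio and limma steps were tested on simulated data. Named genes are the 20 largest ratios in each direction with at least 20 CPM, list members at least 1.5-fold apart with at least 10 CPM (or the 1 to 4 most abundant of a list), and a panel of 12; other names were chosen after their values were seen. The comparison, its members and the lists (42, and 5 added later) were chosen with earlier results of these data known.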

Additional observations from a re-analysis of the deposited data

Results flagged for a closer look

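A few named genes stood at least 1.5-fold apart in opposite directions in different clusters, each with at least 20 UMIs at both times and a counting interval that excluded 1. With 1 library a time the difference between clusters was not tested. Id3, a transcription inhibitor, was 1.73-fold as high at 15 h as at 6 h in enterocyte-like cluster 2 and 0.652-fold in proliferating-like cluster 3. Mcm6, a helicase subunit, stood at a ratio of 2.29 in cluster 7 and of 0.368 in enterocyte-like cluster 1. Psat1, of serine synthesis, stood at 1.69 in cluster 7 and at 0.58 in proliferating-like cluster 5. Reg3g, an antimicrobial lectin, stood at 2.06 in stem-like cluster 4 and at 0.342 in cluster 7.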

How the results depend on the processing

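Single-cell counts of genes at least 2-fold apart stayed within 1.5 times of 74 higher and 40 lower under every choice of cells, scaling and weighting planned. They moved to 24 higher and 10 lower at a limit of 50 CPM, to 599 and 175 with 3 UMIs in each library as the only limit, and to 250 and 364 at 1.5-fold, as those limits change what is counted. Of the alternatives added after the data were seen, equal cluster make-up moved the lower count to 20, while leaving out cluster 7 gave 58 and 35 and leaving out both proliferating-like clusters 79 and 32. Across these alternatives none of 70 named genes past 2-fold changed sign; 19 of them were under 2-fold at equal make-up, 10 without cluster 7 and 10 without the proliferating-like clusters. Sprr2a3 moved most with whole-number entries only, by 0.63 on the log2 scale. The bulk counts of 4031 and 4464 stayed within 1.5 times throughout, at 3836 to 3908 and 4192 to 4387 when 1 library was left out. With the replicate number as a block they were 3985 and 4432; not every same-numbered pair deviated together, so this is no paired design. With quantile normalization Fabp1 reversed to −0.53 (limma adjusted p = 6.81e-07) and Mt1 to 0.00; the cause was not tested. The chosen limit keeps the comparison to genes of at least 10 CPM in the higher library, and a single library a time leaves the spread between cultures unmeasured.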
